A study of Mus musculus with 6 samples.

Results

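The hepatic insulin signalling pathway was followed through 8 transcripts of a count table of 37991 genes: the receptor Insr, the adaptors Irs1 and Irs2, the PI 3-kinase subunit Pik3r1, the kinase Akt2, the transcription factors Foxo1 and Foxo3, and the secreted target Igfbp1. All 8 were among the 14686 genes that passed the filter on low counts. The set was chosen by name after the low knockout values of Irs2 and Igfbp1 had been seen, so the differences between genotypes given for the 8 genes are descriptions and carry no test. The livers came from 12-week-old males of 2 genotypes, C57BL/6J (WT, n = 3) and B6.Zpbp2-/- mice, which lack the zona pellucida binding protein gene Zpbp2 (Zpbp2 KO, n = 3). Both genotypes are labelled with the C57BL/6J strain, and neither carries a further allele or treatment in the labels. The labels give neither the feeding state nor the hour at which livers were taken, both of which are known to move insulin signalling transcripts.

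Insulin binds its receptor on hepatocytes, and the activated receptor phosphorylates the adaptors IRS1 and IRS2. These recruit PI 3-kinase through its regulatory subunit p85, the product of Pik3r1, and the lipid it makes activates AKT2. AKT phosphorylates FOXO1 and FOXO3, which leave the nucleus, and transcription of FOXO targets such as Igfbp1, Irs2 and the gluconeogenic gene G6pc falls. Irs2 is in addition a target of CREB, the factor through which glucagon and cAMP act in fasting, and it is known in liver as the adaptor whose mRNA swings with fasting and feeding, while that of Irs1 is steadier.

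RefSeq promoter windows (GRCm38.p6) were found for 7 of the 8 genes, with 11 windows in all, and the 250 bases before the start site were searched on both strands. The windows of Igfbp1, Irs2 and Irs1 are shown because they were the windows among the 11 that held CAAAACA, the core of the insulin response sequence to which FOXO proteins are known to bind. Capitals mark this motif and its variant CAAAATA, which read TGTTTTG and TATTTTG where they lie on the opposite strand. The Igfbp1 window is chr11:7197537-7197786 on the plus strand, the Irs2 window chr8:11008930-11009179 on the minus strand and the Irs1 window chr1:82291440-82291689 on the minus strand.
Igfbp1: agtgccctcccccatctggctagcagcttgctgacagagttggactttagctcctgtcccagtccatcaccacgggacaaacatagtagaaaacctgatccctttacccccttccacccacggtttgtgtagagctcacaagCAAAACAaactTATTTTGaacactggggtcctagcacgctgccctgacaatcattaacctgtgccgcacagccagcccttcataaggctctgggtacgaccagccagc
Irs2: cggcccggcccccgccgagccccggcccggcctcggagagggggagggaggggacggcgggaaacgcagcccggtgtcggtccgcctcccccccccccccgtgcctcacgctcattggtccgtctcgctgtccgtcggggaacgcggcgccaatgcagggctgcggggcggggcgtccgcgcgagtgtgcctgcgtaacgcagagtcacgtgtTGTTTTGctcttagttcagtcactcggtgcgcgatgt
Irs1: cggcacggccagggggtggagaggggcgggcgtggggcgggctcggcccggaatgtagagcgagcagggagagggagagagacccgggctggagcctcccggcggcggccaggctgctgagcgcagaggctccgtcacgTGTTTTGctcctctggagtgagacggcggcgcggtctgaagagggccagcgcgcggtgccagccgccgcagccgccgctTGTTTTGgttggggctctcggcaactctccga

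Igfbp1 held CAAAACA from base 108 before the start and the variant CAAAATA, in the opposite orientation, from base 97, with 4 bases between them. These are the paired elements for which the Igfbp1 promoter is known. Of all 32851 RefSeq windows, 5.56% held CAAAACA, 3.95% held CAAAATA and 0.0670% held both within 10 bases. In Irs2 a single opposite-strand CAAAACA began at base 37, after an E-box, CACGTG, at base 44, with 1 base between them. Irs1 held 2 opposite-strand copies, from bases 111 and 32, and the first overlapped an E-box that began at base 115. An E-box within 10 bases of CAAAACA, overlap included, occurred in 0.0426% of all windows, and Irs1 and Irs2 were both among these 14 windows. E-boxes alone were in 6.02% of windows. The forkhead core GTAAACA, held by 3.17% of windows, and the core TGACG of the cAMP response element, held by 17.8%, were not in the Irs2 or Igfbp1 windows, and TGACG was in that of Irs1. In GENCODE M21 the Irs2 transcript begins 471 bases further downstream than in RefSeq, so the Irs2 window rests on the RefSeq start. The motifs were picked after the sequences had been read, and a match is a description of the letters.

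The knockout and label check came first. Zpbp2 had 4, 13 and 7 counts in WT replicates 1, 2 and 3 and 0 counts in each Zpbp2 KO library. Libraries held 37904891 to 52955687 counts. All 8 hepatocyte markers were detected and summed to 91900 to 103000 CPM (counts scaled to library size by TMM and expressed per 1e6 counts) in WT and 104000 to 109000 CPM in Zpbp2 KO livers. Of 5 islet markers, 3 were at 0 in every library. Ins1 and Ins2, the genes for insulin itself, had 4 and 6 counts, all in Zpbp2 KO replicate 1, and 0 in the other livers. Skeletal muscle markers summed to 86.0 CPM in WT replicate 1 and 0.419 to 0.824 CPM in the other 5 livers. The other marker sums overlapped between genotypes: Kupffer cell markers came to 177 to 248 CPM in WT and 99.6 to 311 in Zpbp2 KO livers, endothelial ones to 89.9 to 123 and 58.1 to 133, stellate cell and fibroblast ones to 171 to 216 and 148 to 222, T and B cell ones to 2.11 to 4.31 and 2.78 to 5.29, erythroid ones to 145 to 206 and 155 to 292, and adipose ones to 0.841 to 4.23 and 1.44 to 2.82. Zpbp2 KO replicate 2 held the lowest Kupffer cell, endothelial, and stellate cell and fibroblast sums of all livers. It also held the highest hepatocyte and erythroid sums. The part of the marker sums in the results was not tested. In bulk liver RNA, fewer cells of a type and less RNA per cell cannot be told apart.

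By level the receptor was one of the more abundant of these transcripts. Levels per kilobase of annotated exon are meant for comparing genes. On this scale the WT livers held Igfbp1 at 45.4 ± 19.0 CPM per kb (SD, n = 3), Akt2 at 14.9 ± 0.453 and Insr at 10.2 ± 0.807. Foxo3 was at 6.72 ± 0.843, Pik3r1 at 6.26 ± 1.00, Foxo1 at 4.17 ± 0.0345, Irs2 at 3.77 ± 1.21 and Irs1 at 3.76 ± 1.04. Neighbours in this order were apart in every WT liver except Foxo3 and Pik3r1, Foxo1 and Irs2, and Irs2 and Irs1, whose ranges overlapped. The 2 adaptors thus had nearly equal mean length-scaled levels in WT liver, below that of the receptor. Within single WT livers the ratio of Irs2 to Irs1 ran from 0.488 to 1.55. In Zpbp2 KO livers the order kept Igfbp1 first (20.5 ± 7.64 CPM per kb, SD, n = 3), its range now overlapping that of Akt2 (14.9 ± 1.29), and both adaptors stood last, with Irs1 at 2.49 ± 0.719 and Irs2 at 1.60 ± 0.646. Lengths are of all exons of a gene together, so a gene with exons unused in liver is set too low. The deposited counts are named CDS (coding sequence), and whether reads on untranslated exons were counted was not given. If they were left out, genes with long untranslated regions are set too low here. The order of the genes, and the ratios and sum of the adaptors per kilobase, would then differ.

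**Figure D1:**
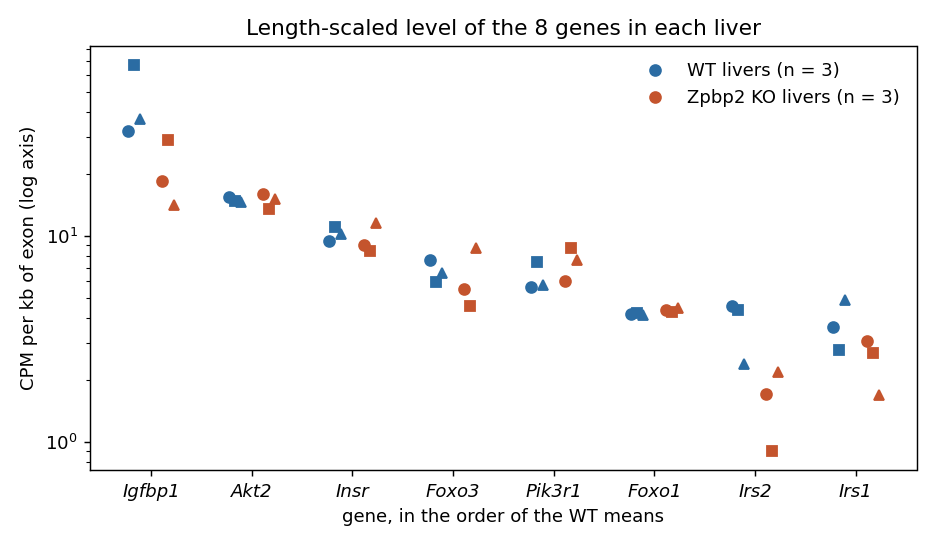
Level of each of the 8 genes per kilobase of exon (vertical log axis, CPM per kb) in the 3 WT (blue) and 3 Zpbp2 KO (orange) livers, with symbol shapes for replicates 1 (circle), 2 (square) and 3 (triangle). Akt2 lies between 13.5 and 16.0 in all 6 livers, while Irs2 spans 0.902 to 4.58.

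Irs2 (ENSMUSG00000038894, chromosome 8), the adaptor that links the receptor to PI 3-kinase in the fasted liver, was lower in every Zpbp2 KO liver than in any WT liver. It stood at 29.0, 27.5 and 15.0 CPM in WT replicates 1, 2 and 3 and at 10.8, 5.70 and 13.8 CPM in Zpbp2 KO replicates 1, 2 and 3. WT replicate 3 was the low WT liver and Zpbp2 KO replicate 3 the high knockout liver, and these 2 values nearly met. The means were 23.8 ± 7.67 and 10.1 ± 4.09 CPM (SD, n = 3), and the log2 fold change of Zpbp2 KO over WT was -1.24 ± 0.342 (SE of the fit). It ran from -0.96 without Zpbp2 KO replicate 2 to -1.53 without Zpbp2 KO replicate 3, and was -1.08 without WT replicate 1, the liver with skeletal muscle transcripts.

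Irs1 (ENSMUSG00000055980, chromosome 1), the second adaptor, which in liver is known mainly for its part in lipid synthesis after feeding, had overlapping groups. Its values were 33.1, 25.6 and 44.5 CPM over the WT livers (replicates 1 to 3) and 28.3, 24.5 and 15.5 CPM in Zpbp2 KO replicates 1 to 3. The means were 34.4 ± 9.51 and 22.8 ± 6.57 CPM (SD, n = 3), a log2 fold change of -0.60 ± 0.255. The value was -0.38 without Zpbp2 KO replicate 3 and -0.39 without WT replicate 3, each over 1.5 times closer to 0. It was -0.62 without WT replicate 1.

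The 2 adaptors did not move together from liver to liver. WT replicate 3 had the lowest Irs2 and the highest Irs1 of the WT livers, and Zpbp2 KO replicate 3 had the highest Irs2 and the lowest Irs1 of the knockout livers. The length-scaled ratio of Irs2 to Irs1 was 1.26, 1.55 and 0.488 over the WT livers and 0.554, 0.336 and 1.29 in Zpbp2 KO replicates 1 to 3, so it overlapped between genotypes. Their sum was more even than either adaptor alone. Irs1 and Irs2 together came to 8.20, 7.15 and 7.24 CPM per kb over the WT livers and to 4.80, 3.58 and 3.87 CPM per kb in Zpbp2 KO replicates 1 to 3, with means of 7.53 ± 0.583 and 4.09 ± 0.639 (SD, n = 3). The groups did not overlap in this sum, which was formed after the values had been seen.

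**Figure D2:**
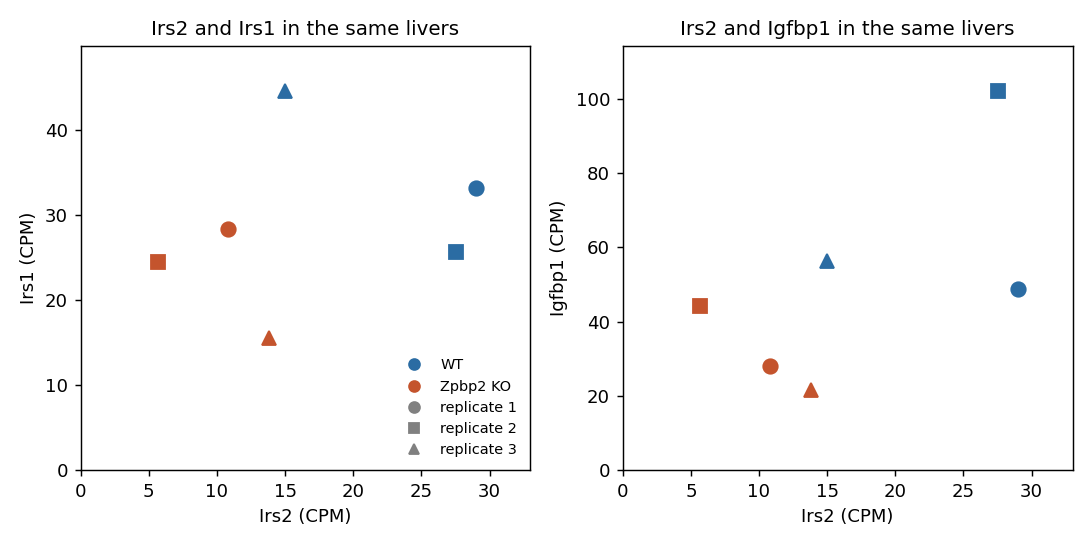
Irs2 (horizontal axis, CPM) against Irs1 (left panel) and Igfbp1 (right panel) in the same 6 livers, WT in blue and Zpbp2 KO in orange, with symbol shapes for replicates 1 to 3. WT replicate 3 holds the highest Irs1 (44.5 CPM) and Zpbp2 KO replicate 3 the lowest (15.5 CPM), while in the right panel the WT liver with the highest Igfbp1 (102 CPM) is replicate 2.

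Igfbp1 (ENSMUSG00000020429, chromosome 11), which encodes a secreted protein that binds IGF1 and whose transcription insulin is known to shut off quickly, was the other gene of the set that stood lower in each knockout liver. It was at 48.8, 102 and 56.4 CPM over the WT livers (replicates 1 to 3) and at 28.1, 44.2 and 21.5 CPM in Zpbp2 KO replicates 1 to 3. The gap between the groups was small, since Zpbp2 KO replicate 2 came close to WT replicate 1, and WT replicate 2 stood far above the rest. The means were 69.2 ± 29.0 and 31.3 ± 11.7 CPM (SD, n = 3), a log2 fold change of -1.15 ± 0.330, which was -0.75 without WT replicate 2 and -1.35 without WT replicate 1. Within each genotype Igfbp1 and Irs2 did not rank the livers alike. Zpbp2 KO replicate 2 held the least Irs2 and the most Igfbp1 of its group, and Zpbp2 KO replicate 3 the most Irs2 and the least Igfbp1. The length-scaled ratio of Igfbp1 to Irs2 ran from 6.46 to 32.1 over the Zpbp2 KO livers and from 6.98 to 15.6 over the WT livers.

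Insr (ENSMUSG00000005534, chromosome 8), the receptor, stood at 129, 151 and 141 CPM over the WT livers (replicates 1 to 3) and at 124, 116 and 158 CPM in Zpbp2 KO replicates 1 to 3. The groups overlapped, with means of 140 ± 11.1 and 132 ± 22.2 CPM (SD, n = 3) and a log2 fold change of -0.08 ± 0.133. Pik3r1 (ENSMUSG00000041417, chromosome 13), which gives the regulatory p85 subunit and shorter forms from internal promoters, was at 56.7, 74.7 and 57.8 CPM in WT and 60.7, 87.8 and 76.9 CPM in Zpbp2 KO replicates 1 to 3. Its groups overlapped, and the log2 fold change was 0.25 ± 0.163, with 0.12 without Zpbp2 KO replicate 2 and 0.39 without WT replicate 2. Akt2 (ENSMUSG00000004056, chromosome 7), the main AKT isoform of insulin action in liver, was the same on average in both groups, at 106 ± 3.23 and 106 ± 9.23 CPM (SD, n = 3), with a range of 96.1 to 114 CPM over the 6 livers and a log2 fold change of 0.00 ± 0.0975.

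Foxo1 (ENSMUSG00000044167, chromosome 3), the factor that drives Igfbp1 and G6pc when insulin is low, was the steadiest of the 8 transcripts. It stood at 36.2, 36.4 and 35.8 CPM over the WT livers (replicates 1 to 3) and at 37.8, 37.0 and 38.6 CPM in Zpbp2 KO replicates 1 to 3. The groups did not overlap, with the knockout livers higher by a log2 fold change of 0.07 ± 0.0859, but they did overlap when counts were scaled by library totals (0.03). Foxo3 (ENSMUSG00000048756, chromosome 10), its close relative, was at 57.7, 45.1 and 49.8 CPM in WT and 41.6, 34.4 and 66.1 CPM in Zpbp2 KO replicates 1 to 3. Its Zpbp2 KO livers spread on both sides of WT, and the log2 fold change was -0.10 ± 0.226, 0.08 without Zpbp2 KO replicate 2 and -0.42 without Zpbp2 KO replicate 3. Per kilobase, Foxo1 was at 0.548 to 0.705 of Foxo3 in WT and at 0.511 to 0.938 in Zpbp2 KO livers.

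**Figure D3:**
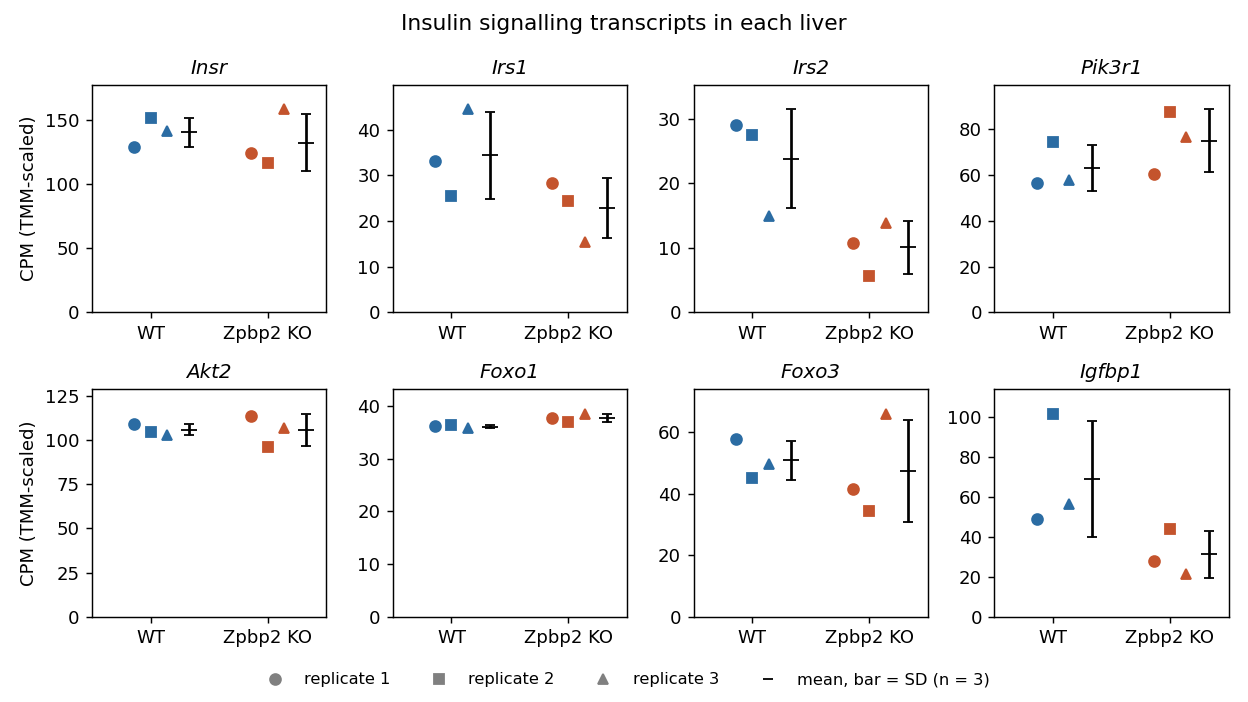
TMM-scaled CPM (vertical axes from 0) of each of the 8 genes in the 3 WT (blue) and 3 Zpbp2 KO (orange) livers, with the mean and SD of each group in black. Irs2 and Igfbp1 are lower in all 3 Zpbp2 KO livers than in any WT liver, Foxo1 sits between 35.8 and 38.6 CPM throughout, and Irs1, Insr, Pik3r1, Akt2 and Foxo3 overlap.

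The 8 transcripts differed widely in how much they varied among livers of 1 genotype. The pooled within-genotype SD of log2 CPM was 0.59 for Irs2, 0.55 for Igfbp1 and 0.43 for Irs1, at percentiles 93.1, 90.8 and 83.3 of all tested genes, where a high percentile is a more variable gene. Foxo3 (0.36, percentile 77.0) and Pik3r1 (0.25, percentile 59.3) came next. Insr (0.18, percentile 43.2) and Akt2 (0.10, percentile 12.1) varied less than most genes, and Foxo1 (0.02, percentile 0.200) was among the least variable of all. The spread of Foxo1 (0.024) was below its counting error (0.034), so it cannot be resolved further at this depth. The 3 genes with the largest distance between genotypes were thus those that also differed most between livers of the same genotype.

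Over all 14686 genes, the quasi-likelihood test of edgeR, with p-values adjusted after Benjamini and Hochberg, called 0 genes higher (0% of those tested) and 2 lower (0.0136%) in Zpbp2 KO livers at an adjusted p below 0.05. None of the 8 genes was among them. With no adjustment, p was below 0.05 for 3 of the 8 on the lower side (Irs1, Irs2 and Igfbp1) and 0 on the higher side, and for 430 and 420 of all genes. Limma-voom called 0 of the 8, and over all genes 0 higher (0%) and 2 lower (0.0136%). DESeq2 called 27 of 14681 genes higher (0.184%) and 49 lower (0.334%), Irs2 and Igfbp1 among the lower. Of the 8 genes 2 were lower and 1 higher without overlap of the groups, where 6.01% of all tested genes were lower and 5.56% higher in this way. This contrast chose the genes, and nothing is read from these counts.

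The other genes of the pathway were taken from 9 lists written from textbook knowledge. The lists were drawn up with earlier results of these data known, so their counts describe and give no independent support. Some genes are on several lists, and 138 different tested genes lie outside the 8. Among these, edgeR called 2 lower and 0 higher, against 0.0136% and 0% of all tested genes. DESeq2 called 5 lower and 2 higher, against 0.334% and 0.184%. Unadjusted, 16 had an edgeR p below 0.05 on the lower side and 5 on the higher side, against 430 and 420 of all 14686. The same shares over all genes stand beside the counts of each list below. Of the 138, 82 had a log2 fold change below 0, and the median was -0.07, against 6922 of 14686 and a median of 0.01 over all tested genes.

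Among transcripts that insulin is known to repress or to induce, edgeR called 0 genes. Of 17 tested insulin-repressed genes besides Irs2, Igfbp1 and Insr, 11 were below 0, against 6922 of 14686 over all genes, and the median log2 fold change was -0.29, against 0.01, which moved to -0.18 without WT replicate 1 and also without Zpbp2 KO replicate 2. Unadjusted edgeR p-values below 0.05 numbered 4 on the lower and 0 on the higher side. DESeq2 called 1, Pdk4, whose product inhibits the pyruvate dehydrogenase complex. Pdk4 was at 12.9, 13.5 and 21.5 CPM in WT and 6.36, 6.25 and 4.02 CPM in Zpbp2 KO replicates 1 to 3, with no overlap. Its log2 fold change was -1.53 ± 0.253 (adjusted p = 0.287 by edgeR, 2.53e-06 by DESeq2). In edgeR with no filter on low counts Pdk4 passed the threshold (adjusted p = 0.0496). G6pc, which encodes the last step of glucose release, was at 1020, 950 and 693 CPM over the WT livers (replicates 1 to 3) and at 288, 785 and 198 CPM in Zpbp2 KO replicates 1 to 3. Zpbp2 KO replicate 2 was the knockout liver that reached the WT range of G6pc. The same liver held the highest knockout Igfbp1, which stayed below the WT range. The log2 fold change of G6pc was -1.07 ± 0.450 (adjusted p = 0.798 by edgeR), and -1.87 (adjusted p = 0.104 by edgeR) without Zpbp2 KO replicate 2. Bcl6, a transcriptional repressor, was low in WT replicate 2 (15.2 CPM) and in the 3 Zpbp2 KO livers (14.5 to 24.1 CPM). It was high in the other WT livers (68.4 and 74.7 CPM). Its log2 fold change was -1.39 ± 0.504 (adjusted p = 0.798 by edgeR). Pck1, the gluconeogenic enzyme, spanned 1990 to 3630 CPM in WT and 1540 to 2770 CPM in Zpbp2 KO livers, which overlapped.

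Of 18 tested insulin-induced genes 15 had values above 0, against 7764 of 14686 over all genes, and the median of the 18 was 0.30, or 0.18 without Zpbp2 KO replicate 3. Unadjusted edgeR p-values below 0.05 numbered 3 on the higher and 1 on the lower side, and DESeq2 called 1 higher, Lpin1, a phosphatidate phosphatase of triglyceride synthesis. In liver Lpin1 is also known to be raised by fasting signals and glucocorticoids, so its place on this list is not a clear one. Lpin1 stood at 87.5, 43.5 and 50.8 CPM in WT and 83.8, 161 and 179 CPM in Zpbp2 KO replicates 1 to 3, with overlap at replicate 1 of each genotype, and a log2 fold change of 1.22 ± 0.330 (adjusted p = 0.663 by edgeR, 0.0222 by DESeq2). Pnpla3, a lipase-like protein induced by feeding, was at 2.07 ± 0.588 and 4.33 ± 1.98 CPM (SD, n = 3; log2 fold change 1.06 ± 0.379, adjusted p = 0.798 by edgeR). Id1, a helix-loop-helix inhibitor, was the gene with an unadjusted p below 0.05 on the lower side (6.71 ± 1.42 and 4.76 ± 0.280 CPM, SD, n = 3; log2 fold change -0.50 ± 0.192, adjusted p = 0.798 by edgeR).

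**Figure D4:**
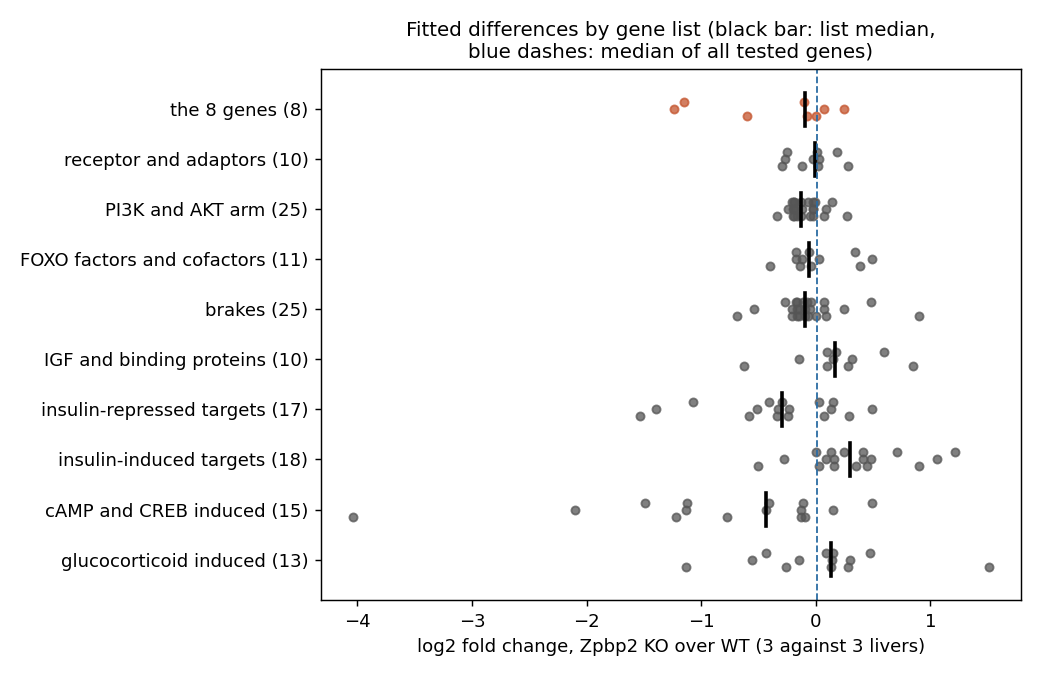
Log2 fold change of Zpbp2 KO over WT (horizontal axis) for the 8 genes (orange) and for the tested genes of 9 pathway lists (gray, number tested in brackets), with list medians as black bars and the median of all tested genes as a dashed line. Insulin-repressed targets have a median of -0.29 and insulin-induced targets one of 0.30, and the 2 lowest points, in the cAMP and CREB list, are Nr4a1 and Sik1.

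Genes that cAMP and CREB induce, a list that Irs2 also belongs to, held both genes that edgeR called lower. These were Sik1, a kinase that restrains the CREB coactivators (adjusted p = 0.000993 by edgeR, log2 fold change -2.10 ± 0.118, lower in 3 of 3 Zpbp2 KO livers), and Nr4a1, an orphan nuclear receptor (adjusted p = 0.00499 by edgeR, log2 fold change -4.04 ± 0.302, lower in 3 of 3). Nr4a1 missed the threshold under limma-voom (adjusted p = 0.0523) and, in edgeR, when Zpbp2 KO replicate 3 was left out (adjusted p = 0.0923). Sik1 went from 49.0 to 55.8 CPM over the WT livers to 11.2 to 13.5 CPM over the knockout livers, a tighter split than that of Irs2 (15.0 to 29.0 and 5.70 to 13.8 CPM). Of the 15 tested genes outside the 8 members 13 were below 0, against 6922 of 14686 over all genes. Their median was -0.43, which was -0.18 without WT replicate 1, -0.74 without WT replicate 2 and -0.78 without Zpbp2 KO replicate 2. DESeq2 called 4 lower and 0 higher, with Fos and Atf3 beside the 2 named. Fos, an immediate early factor, was at 2.20 ± 0.761 and 0.781 ± 0.156 CPM (SD, n = 3; log2 fold change -1.49 ± 0.325, adjusted p = 0.475 by edgeR, 0.0111 by DESeq2). Atf3, a stress-responsive factor, was at 2.63 ± 0.630 and 1.21 ± 0.137 CPM (SD, n = 3; -1.12 ± 0.248 on the log2 scale, adjusted p = 0.475 by edgeR, 0.0259 by DESeq2). Genes induced by glucocorticoids, which also raise Igfbp1, had 8 of 13 above 0, against 7764 of 14686 over all genes. Their median was 0.13, and -0.03 without Zpbp2 KO replicate 2. EdgeR called 0 (unadjusted, 1 on the higher and 2 on the lower side had p below 0.05), and DESeq2 called 1, Lcn2, higher. The 2 on the lower side, Dusp1 and Tat, are also on the cAMP and CREB list. Lcn2 stood at 1.25 ± 0.527 and 3.52 ± 1.53 CPM, Dusp1 at 50.9 ± 15.5 and 23.3 ± 11.5 CPM, and Tat, the tyrosine aminotransferase gene, at 1530 ± 238 and 1140 ± 151 CPM (SD, n = 3).

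The upstream parts of the pathway lay within narrow limits, and edgeR and DESeq2 called 0 of these genes. Of 10 receptor and adaptor genes besides Insr, Irs1 and Irs2, 5 were above 0 and 5 below, with a median of -0.01. Unadjusted edgeR p-values were below 0.05 for 2, both on the lower side. Those were Sos1, the exchange factor that passes the signal to RAS (54.6 ± 2.31 and 46.0 ± 1.72 CPM, SD, n = 3; -0.25 ± 0.0899 on the log2 scale), and Ptpn11, the phosphatase SHP2 that docks on the adaptors (85.6 ± 5.59 and 71.1 ± 5.98 CPM; -0.27 ± 0.103). Igf1r, the receptor for IGF1 that hepatocytes hardly make, was at 0.523 to 0.878 CPM over the 6 livers, against 116 to 158 CPM for Insr. The related adaptor gene Irs4 had 0 counts. In the PI 3-kinase and AKT arm 21 of 25 genes were below 0, against 6922 of 14686 over all genes. The median was -0.13 (-0.07 without WT replicate 2 and -0.24 without Zpbp2 KO replicate 3), and 0 of 25 had an unadjusted edgeR p below 0.05. Tbc1d4, an AKT substrate that governs glucose transporter traffic, had the smallest p (4.34 ± 0.758 and 3.43 ± 0.145 CPM, SD, n = 3; -0.34 ± 0.185). Pik3ca, a catalytic subunit that binds p85, was at 39.1 ± 2.14 and 33.9 ± 4.33 CPM, and Prkci, an atypical protein kinase C, at 19.8 ± 2.53 and 16.8 ± 1.95 CPM (SD, n = 3).

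Brakes on the pathway, such as phosphatases and inhibitory adaptors, had 18 of 25 genes below 0, against 6922 of 14686 over all genes. Their median was -0.09, which was -0.04 without Zpbp2 KO replicate 2 and -0.19 without Zpbp2 KO replicate 3. The unadjusted edgeR p was below 0.05 for 1, Phlpp2, a phosphatase that inactivates AKT (6.65 ± 0.520 and 4.56 ± 1.17 CPM, SD, n = 3; -0.54 ± 0.205 on the log2 scale). Mapk8, the JNK1 gene, was at 23.5 ± 1.77 and 20.4 ± 1.84 CPM, and the receptor phosphatase gene Ptprf at 278 ± 17.7 and 241 ± 32.6 CPM (SD, n = 3). Among FOXO factors and cofactors 7 of 11 were below 0 (median -0.06), and 1, the deacetylase Sirt1, had an unadjusted p below 0.05 (15.4 ± 0.719 and 11.7 ± 1.37 CPM, SD, n = 3; -0.40 ± 0.128). The pioneer factors Foxa2 and Foxa1 were at 28.8 ± 8.15 and 37.9 ± 5.68 CPM and at 22.1 ± 6.84 and 27.9 ± 2.53 CPM (SD, n = 3), with overlap.

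Transcript length moved with these small shifts, and its part in them was not tested. Tested genes with a known exon length were split into 4 classes of nearly equal size. The median log2 fold change was 0.13 in the shortest class (up to 2.50 kb), where 27.1% of genes were below 0, and -0.09 in the longest class (6.56 kb and more), where 68.3% were below 0. Of the 25 genes in the PI 3-kinase and AKT arm 13 lay in the longest class, and of the 25 brakes 14. Insulin-repressed and insulin-induced targets had median exon lengths of 3.54 and 5.09 kb, with 5 genes each in the longest class. Irs2 has 6.32 kb and Igfbp1 1.52 kb of exon.

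The 6 other IGF binding protein genes (Igfbp2 to Igfbp7) all had a log2 fold change above 0, and none was called. Of 10 genes of the IGF system besides Igfbp1, 8 were above 0, against 7764 of 14686 over all genes. Their median was 0.17, with 0 called by edgeR or DESeq2. Igfbp2, which liver also secretes, was at 448, 407 and 367 CPM in WT and 587, 483 and 459 CPM in Zpbp2 KO replicates 1 to 3, without overlap and opposite in sign to Igfbp1 (0.32 ± 0.126 on the log2 scale, adjusted p = 0.798 by edgeR, unadjusted p = 0.0318). Igfbp6 was at 0.965 ± 0.654 and 1.76 ± 0.466 CPM, and Igfbp5 at 8.20 ± 1.73 and 12.5 ± 5.79 CPM (SD, n = 3). Igf1, the hormone these proteins carry, spanned 512 to 648 CPM in WT and 572 to 749 CPM in Zpbp2 KO livers.

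The genes whose log2 CPM followed Irs2 most closely over the 6 livers, among 11304 searched, were Parva (Pearson's r = 0.9949), Luzp1 (0.9941), Seh1l (0.9889), Serinc5 (0.9889) and Mbtps1 (0.9882). Their levels differed between livers on a far smaller scale than that of Irs2. Parva, which encodes a focal adhesion protein, was at 108 ± 3.21 CPM over WT and 101 ± 4.14 CPM over Zpbp2 KO livers, and Mbtps1, the protease that releases SREBP factors, at 72.6 ± 3.92 and 64.3 ± 2.90 CPM (SD, n = 3). The closest to Igfbp1 were Nsd2 and Shank2 (r = 0.9841 each), Rbm45 (0.9797), Cbwd1 (0.9786) and Selenoi (0.9775), none of them on the Irs2 list. Nsd2, a histone methyltransferase gene, was at 26.8 ± 2.90 and 21.8 ± 1.96 CPM (SD, n = 3). Between Irs2 and Igfbp1 themselves r was 0.47, and -0.41 after each genotype's mean had been removed. With 6 points that share libraries, and so many genes searched, these values describe likeness only.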

How the data were processed

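Poly(A)-selected RNA (250 ng per liver) was read as pairs of 100 cycles with a directional kit, per the labels' protocols. The deposited values are counts per Ensembl gene, whole numbers with no normalization. STAR, Picard, HTSeq and the genome build mm9 are named per the submitters' processing notes, and their versions, the annotation and the strand setting were not given in the sources used here. Symbols were matched for 32919 of 37991 IDs (86.6%) through GENCODE M21 and RefSeq tables, and exon lengths came from GENCODE M21 (GRCm38). The labels do not say more of the animals than 1 liver per library, so p-values measure the spread between these samples.

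Zpbp2 KO was compared with WT (3 against 3) by the quasi-likelihood test of edgeR 4.0.16 (R 4.3.3) on the whole table, with filterByExpr (minimum count 10), TMM, no covariate and Benjamini-Hochberg adjustment. CPM values use TMM-scaled sizes, and the SE is that implied by the test. DESeq2 1.42.0, limma-voom (limma 3.58.1), other scalings and filters, a replicate block and each library left out were alternatives. The code was tested on simulated data. Log2 CPM for likeness used a prior count of 2, and likeness required a mean log2 CPM of at least 0.

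The 8 genes and the lists were chosen with earlier results of these data known. Besides the 8 genes and Zpbp2, the text names the 3 genes of each list with the smallest p, any called gene, and for Irs2 and Igfbp1 the 5 genes with the highest r. Pck1, Igf1, Atf3, Irs4 and the IGF binding proteins beyond that rule were named after their values were seen. The marker genes Ins1 and Ins2 are from the islet list. Alas2, Hbb-bs and Hbb-bt are from the erythroid list and were named after their values were seen.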

Additional observations from a re-analysis of the deposited data

How the results depend on the processing

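The log2 fold changes of Irs1, Irs2, Igfbp1, Foxo1 and Pik3r1 kept their sign under all 13 alternatives, that of Insr under 12 and that of Foxo3 under 11, and Akt2 stayed between -0.06 and 0.06. Over all genes DESeq2 called 27 higher and 49 lower and the fit with no filter on low counts 3 and 9, against 0 and 2. Limma-voom also called 2 lower, 1 of them shared with edgeR. Of the other pathway genes DESeq2 called 2 higher and 5 lower, edgeR with no filter on low counts 3 lower, and limma-voom called 1 lower in place of 2. With a library left out, 0 to 1 genes were called higher (1 without Zpbp2 KO replicate 1) and 2 to 4 lower (4 without Zpbp2 KO replicate 2) over all genes, and 0 higher and 1 to 2 lower (1 without Zpbp2 KO replicate 3) among the other pathway genes. The cause was not tested. Same-numbered livers had correlations of 0.14, 0.20 and -0.24 (deviations from genotype means), and not every liver correlated best with its own number. With 3 livers per genotype these values cannot settle whether replicate numbers pair the livers. With the replicate block edgeR called 0 higher and the same 2 lower. The block changed the SE of Igfbp1 from 0.330 to 0.145, with a log2 fold change of -1.13. Counting error was below the spread between livers of 1 genotype for 7 of the 8 genes, and above it for Foxo1 (0.034 against 0.024 as SD of log2 CPM).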
